A study of Arabidopsis thaliana with 6 samples.

Results

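The mitochondrial genome of Arabidopsis encodes part of respiratory complex I, the NADH dehydrogenase, in genes named nad. The report concerns 8 of them: nad1, nad2, nad4, nad4L, nad5, nad6, nad7 and nad9. They were taken by symbol from the array annotation, using only probe sets that it gives to a single gene, and the probe set with the highest mean over all 6 arrays stands for each gene. The 8 genes have 15 such probe sets, out of 13513 single-gene probe sets for 13355 genes. RefSeq lists 9 mitochondrial nad genes, and nad3 was not analysed here. The flight group comprised 3 arrays of Landsberg (LER-0) seedlings raised in darkness in BRIC-PDFU canisters aboard the space shuttle. The ground group comprised 3 arrays of a ground control of the same ecotype and tissue, whose growth text names the same hardware. Both are labelled as seedling shoots put into RNAlater, carry the replicate numbers 2, 3 and 4, and have no age, added treatment or transgene in the labels used here.

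Complex I takes electrons from NADH in the mitochondrial matrix, passes them to ubiquinone and pumps protons across the inner membrane. It has an arm in the membrane and an arm that projects into the matrix, and both combine subunits encoded in the mitochondrion with a larger number encoded in the nucleus. The nad genes are transcribed inside the mitochondrion, and several of their messengers need intron splicing, in some cases between separately transcribed pieces, as well as C-to-U editing. In dark-grown seedlings, which do not photosynthesise, respiration of stored reserves supplies the energy for growth. Plant mitochondrial messengers have no stable poly(A) tail. The RNA here was amplified with a whole-transcriptome kit, per the labels' protocols.

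The deposited values are on a log2 scale on which the array medians lay between 2.15 and 2.24. All 22746 probe sets that are not controls were compared with limma, and "called" below means a Benjamini-Hochberg adjusted p under 0.05 over all of them. A value after ± is an SD over 3 arrays. Separate dishes or plants behind the 3 arrays of a group are not stated in the labels, and each p-value therefore reflects the spread of these samples alone, which may be technical. The titles also carry a letter, f for flight and h for ground, that is not explained and cannot be told apart from the group. No listed shoot marker (0 of 7) has a single-gene probe set. Among root markers, EXPA7 and EXPA18 of root hairs averaged 1.19 ± 0.20 and 1.38 ± 0.18 in flight, below every array median. PYK10, a beta-glucosidase known from seedling roots and hypocotyls, averaged 10.78 ± 0.08 in flight and 10.21 ± 0.66 on the ground.

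The nad genes lay lower in flight seedlings than in ground seedlings. nad5 and nad4 fell past the threshold, each to about 46% to 48% of its ground level. That is 2 of 8 genes called lower and none called higher, beside 1.82% of all probe sets called lower and 4.13% called higher. Calls were more frequent among brighter probe sets. With those below the median mean level left out, 464 of 11373 were called lower and 945 higher. Of the 7 nad genes then kept, 3 were called lower. All 8 flight means were below the ground means, with log2 changes from -1.27 for nad9 to -0.17 for nad2. Their median was -0.81, beside -0.02 over all probe sets tested. For 6 of 8 genes every flight array lay below every ground array, which held for 11.8% of all probe sets, and 14.2% were separated the other way. In RNA from whole shoots, fewer mitochondria or fewer cells of a type and less RNA per cell cannot be told apart.

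In the membrane arm, nad5, nad4 and nad2 encode the large antiporter-like subunits that carry out proton pumping. nad5 had the highest level of the 8. It read 9.51, 9.31 and 9.34 in flight replicates 2, 3 and 4, against 10.56, 10.67 and 10.29 in ground replicates 2, 3 and 4. The groups were well apart, and the flight level was 46.0% of the ground level (95% interval 35.8% to 59.2%). The log2 change was -1.12 (SE 0.15, limma adjusted p = 0.0116). The call was lost without flight replicate 3 (adjusted p = 0.0625) or flight replicate 4 (adjusted p = 0.0551), while the log2 change stayed between -1.23 and -1.04 with any single array left out.

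For nad4 the flight arrays read 4.81, 4.87 and 4.57, against 5.91, 6.22 and 5.33 on the ground. All flight readings were lower than the lowest ground reading, ground replicate 4. The flight level was 47.6% of the ground level (95% interval 32.1% to 70.5%), a log2 change of -1.07 (SE 0.24, limma adjusted p = 0.0482). This call sits at the threshold. It was lost without flight replicate 2 (adjusted p = 0.128), flight replicate 3 (0.137), flight replicate 4 (0.160), ground replicate 2 (0.0801) or ground replicate 3 (0.0947), and held without ground replicate 4 (0.0223).

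The dim member of this trio, nad2, read 2.31, 2.38 and 2.55 in flight, against 2.38, 3.19 and 2.19 on the ground. The groups overlapped: ground replicate 3 lay above all flight arrays, ground replicate 4 below all of them and ground replicate 2 among them. Its log2 change was -0.17 (SE 0.26, limma adjusted p = 0.776, 95% interval -0.79 to 0.45), and it came to 0.13 without ground replicate 3. These readings are close to the array medians, where a probe set cannot be called expressed or not, so the array says little about nad2.

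The remaining membrane-arm genes are nad1, whose product forms part of the ubiquinone site where the arms meet, and nad4L and nad6, which encode small subunits beside it. nad4L read 7.17, 7.15 and 6.99 in flight, against 7.94, 8.37 and 7.47 on the ground. The groups did not overlap, and the log2 change of -0.83 (SE 0.23, limma adjusted p = 0.0943) missed the threshold. nad6 read 5.17, 4.91 and 4.96 in flight, against 5.32, 6.002 and 5.43 on the ground. Its groups were also apart, but by a gap of only 0.15 between flight replicate 2 and ground replicate 2, and its log2 change was -0.57 (SE 0.21, limma adjusted p = 0.172). The nad6 change was -0.37 without ground replicate 3 (limma adjusted p = 0.294). It was -0.29 between flight replicates 2 and 3 and ground replicate 2, where a single ground array has no spread and no p-value is given.

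The most strongly hybridising nad1 probe set read 8.93, 8.78 and 8.82 in flight, against 9.70, 9.83 and 8.58 on the ground. Ground replicate 4 lay below all flight arrays, while the other ground arrays lay well above them. The log2 change was -0.53 (SE 0.32, limma adjusted p = 0.421). It was -0.30 without ground replicate 3 (limma adjusted p = 0.697) and -0.36 without ground replicate 2 (0.624). Without ground replicate 4 it was -0.92 and was called (limma adjusted p = 0.0319). Among the cases with 1 array left out, nad4L too was called only in that one, with a log2 change of -1.05 (limma adjusted p = 0.0416).

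In the matrix arm, nad7 and nad9 encode neighbouring subunits that link the iron-sulphur chain to the quinone site. nad9 read 4.63, 5.29 and 4.47 in flight, against 5.96, 6.54 and 5.71 on the ground. Every ground array was above every flight array, and replicate 3 was the highest array of each group. Among the 8 genes nad9 had the lowest flight level as a share of the ground level, 41.4% (95% interval 25.8% to 66.6%). With its wider spread the log2 change of -1.27 (SE 0.29, limma adjusted p = 0.0512) stopped just short of the threshold. It passed in 6 of 9 other settings with all arrays kept and in 0 of 6 cases with an array left out. Among those 9, the mean of a gene's probe sets repeats the main fit, since nad9 has a single probe set.

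nad7 read 1.52, 1.78 and 1.52 in flight, against 2.15, 3.01 and 2.03 on the ground. The groups did not overlap, and the flight arrays lay below the array medians while ground replicate 3 lay above them. Its log2 change was -0.79 (SE 0.27, limma adjusted p = 0.151). Without ground replicate 3 it was -0.48 (limma adjusted p = 0.183), and between flight replicates 2 and 3 and ground replicate 2 it was -0.50. As with nad2, readings at this height cannot separate a weak probe set from an absent transcript.

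**Figure D1:**
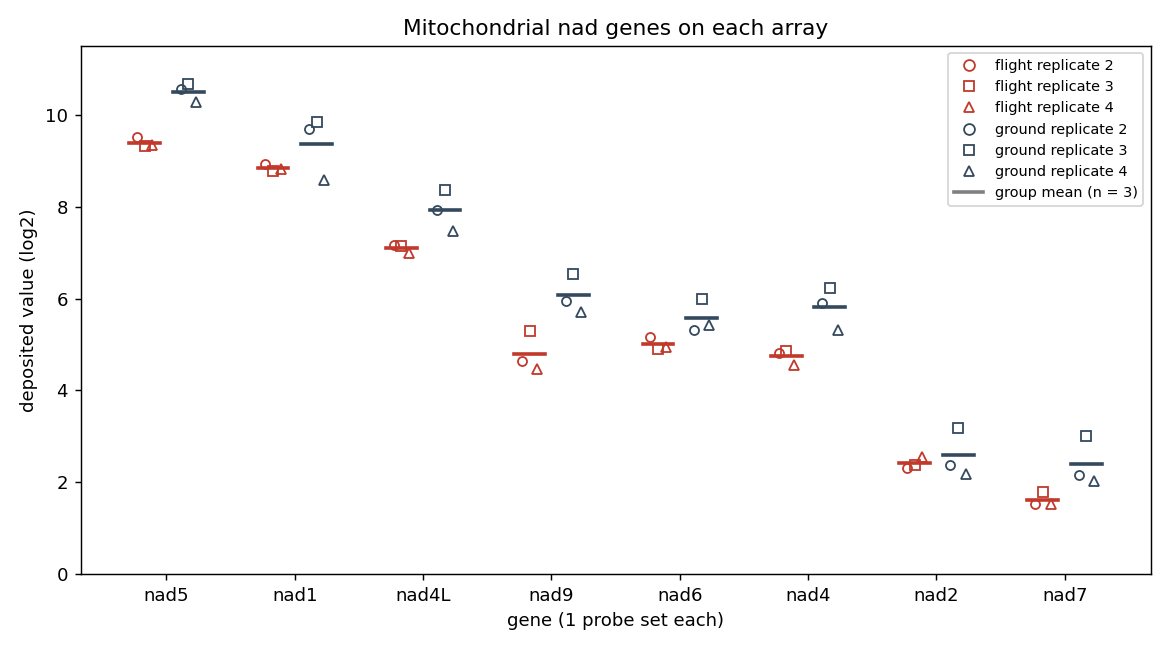
Deposited log2 value (vertical axis) of the 8 nad genes (horizontal axis, 1 probe set each), with flight arrays in red left of ground arrays in dark blue. Symbols mark the replicate and bars the group mean of 3 arrays; the groups are apart for 6 of 8 genes and overlap for nad1 and nad2.

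**Figure D2:**
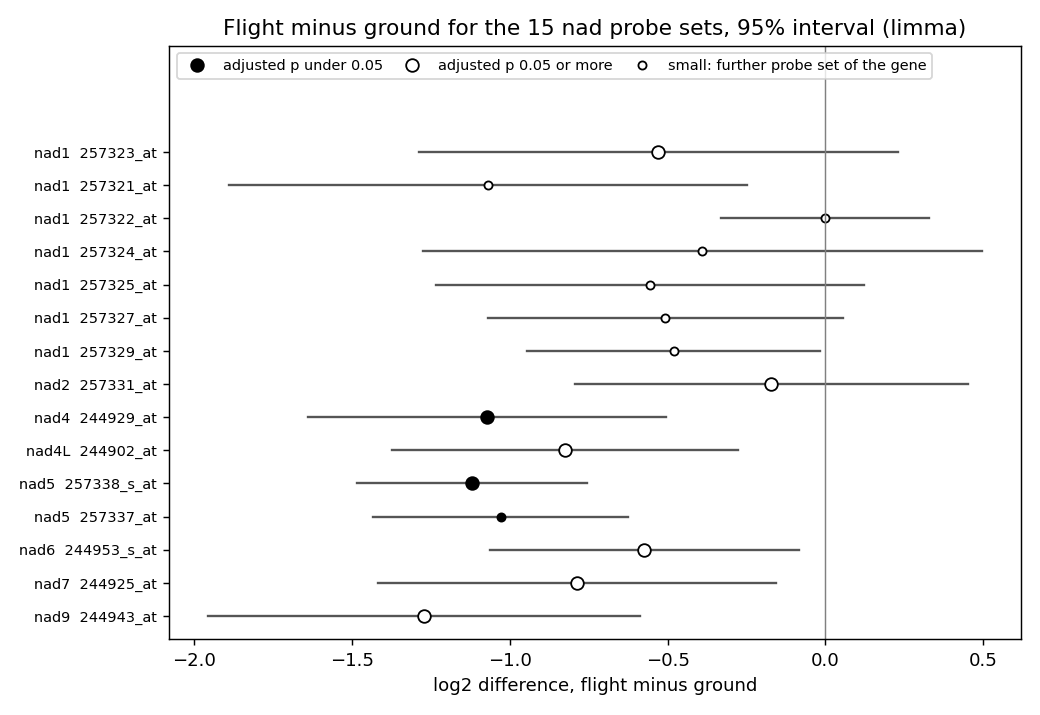
Log2 difference between flight and ground (horizontal axis) for all 15 nad probe sets, with limma's 95% interval as a line. Filled points have an adjusted p under 0.05 and small points are further probe sets of a gene; nad4 and both nad5 probe sets are filled.

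Over the 8 genes, 6 of the 95% intervals lay below 0, and those of nad1 and nad2 did not. The ground arrays were the more variable, with a larger SD than the flight arrays in 7 of 8 genes; nad9 was the exception, at 0.44 in flight and 0.43 on the ground. The changes are listed here by how the messengers are spliced, with nad2 and nad7 read near the array medians. Among genes whose transcripts are joined in trans, nad1 and nad2 had log2 changes of -0.53 and -0.17 and nad5 had -1.12. Among genes with introns spliced only in cis, nad4 had -1.07 and nad7 -0.79. The intronless genes spanned -1.27 for nad9, -0.83 for nad4L and -0.57 for nad6. These are 2 or 3 genes each, and no test between the classes was made.

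Only nad1 and nad5 have further single-gene probe sets, which read other stretches of the same genes. The second nad5 probe set (257337_at) was dimmer and gave the same call. It read 7.32, 7.06 and 6.93 in flight, against 8.35, 8.10 and 7.95 on the ground. The groups were apart by 0.63, and the log2 change was -1.03 (SE 0.17, limma adjusted p = 0.0208), close to the -1.12 of the brighter probe set. Both probe sets read the same RNA samples, so they repeat the measurement of the gene and not the experiment.

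The 7 probe sets of nad1 differed much more among themselves, in level and in change. Flight means ran from 8.84 for the brightest down to 1.17 for the dimmest (257322_at), whose log2 change was -0.0009 at a reading far below the array medians. The log2 change that was furthest below 0 was that of 257321_at, at -1.07 (SE 0.35, limma adjusted p = 0.136). It read 5.29, 6.07 and 4.97 in flight, against 6.53, 7.01 and 6.0003 on the ground, so that flight replicate 3 just overlapped ground replicate 4. Between them, 257325_at, 257327_at, 257329_at and 257324_at changed by -0.56, -0.51, -0.48 and -0.39. None of the 7 was called, and 257327_at alone had groups that did not overlap, by 0.01. Over all 15 nad probe sets the flight mean was below the ground mean in 15, and 3 were called lower, beside 1.82% of all probe sets.

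**Figure D3:**
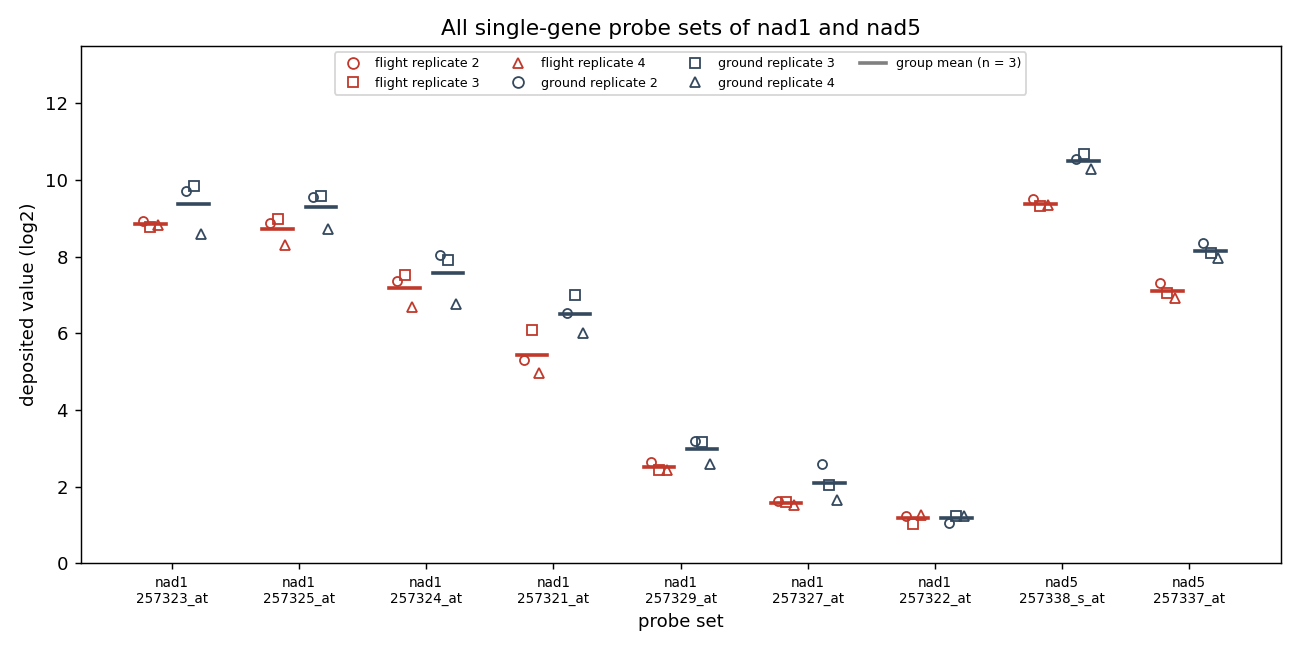
Deposited log2 value (vertical axis) of every single-gene probe set of nad1 and nad5 (horizontal axis, by gene and by mean level), with flight arrays in red left of ground arrays in dark blue and bars at the means of 3 arrays. The nad5 probe sets separate the groups, while ground replicate 4 falls among or below the flight arrays for the 4 brightest nad1 probe sets.

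The genes kept much the same order of signal in both groups. The flight means ran nad5 (9.39 ± 0.10), nad1 (8.84 ± 0.07), nad4L (7.10 ± 0.10), nad6 (5.01 ± 0.14), nad9 (4.80 ± 0.44), nad4 (4.75 ± 0.16), nad2 (2.41 ± 0.12) and nad7 (1.61 ± 0.15). The ground means ran nad5 (10.51 ± 0.20), nad1 (9.37 ± 0.69), nad4L (7.93 ± 0.45), nad9 (6.07 ± 0.43), nad4 (5.82 ± 0.46), nad6 (5.59 ± 0.36), nad2 (2.59 ± 0.53) and nad7 (2.40 ± 0.53). Only the middle of the order differed: nad6 stood above nad9 and nad4 in flight and below both on the ground. Adjacent ranges overlapped among nad6, nad9 and nad4 in both groups, as did those of nad2 and nad7 on the ground, so these neighbours were not separated. In flight nad5 read above 99.4% of all probe sets and nad7 above 34.5%. On the ground the shares were 99.9% and 53.8%. Such an order is one of probe signal, which depends on each probe set's affinity, and not of transcript number.

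Across arrays the 8 genes moved largely together. Ground replicate 3 was the highest of all 6 arrays for 8 of 8 genes. Ground replicate 4 was the lowest ground array for 7 of them, nad6 being the exception with ground replicate 2. No flight array held such a place: the highest flight array was replicate 2 for 4 genes, replicate 3 for 3 and replicate 4 for 1. Averaged over the genes, the level was 5.51, 5.56 and 5.40 in flight, against 6.24, 6.73 and 5.88 on the ground. Over the 28 pairs of genes, Pearson's r across the 6 arrays ran from 0.40 (nad2 with nad5) to 0.99 (nad4 with nad4L), with a median of 0.85. These are descriptions over 6 arrays that share the group difference and the normalization of each array.

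Several array-wide measures also differed between arrays, and their part in the nad levels was not tested. The hybridization spike-in controls averaged 10.14, 10.19 and 10.13 in flight, against 10.20, 10.19 and 9.61 on the ground. Ground replicate 4 was thus the lowest of all arrays there. For the nad mean it was the lowest ground array only, and lay above every flight array. The 25S ribosomal RNA probe set read 12.47, 12.55 and 12.49 in flight, against 12.52, 12.31 and 11.97 on the ground. Transcripts of seed storage genes (3 measured of 12 listed: embryo proteins that mark seed remains or unmobilised reserves) averaged 2.46, 1.81 and 4.96 in flight, against 1.78, 8.44 and 8.53 on the ground. They were thus high in ground replicates 3 and 4 and low in ground replicate 2, while the nad mean of ground replicate 2 lay between those of the other ground arrays. With the seed storage mean as a covariate the log2 change was -1.16 for nad5 (limma adjusted p = 0.0326) and -1.18 for nad4 (0.0943). Between flight replicates 2 and 3 and ground replicate 2, the arrays with little seed storage signal, it was -1.15 for nad5 and -1.07 for nad4. These are given without p-values, since a single ground array has no spread. Centred on the spike-ins, nad5 and nad4 changed by -1.27 (0.0118) and -1.23 (0.0152). The part of RNA quality was not tested. The log2 signal of the 3′ minus the 5′ probe set of GAPDH averaged 1.78 ± 0.14 in flight and 1.66 ± 0.18 on the ground in one design and 0.19 ± 0.20 in flight and 0.26 ± 0.17 on the ground in another. That of actin averaged 1.94 ± 0.27 in flight and 1.59 ± 0.35 on the ground, and that of ubiquitin 1.87 ± 0.05 in flight and 1.85 ± 0.30 on the ground. Within the ground group the actin, ubiquitin and second GAPDH differences were lowest on replicate 3 and highest on replicate 4, the reverse of the nad mean. The first GAPDH difference was also highest on ground replicate 4 (1.79) but lowest on ground replicate 2 (1.46).

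The other mitochondrion-encoded genes with a single-gene probe set were also lower in flight. Of these 8 genes, 3 were called lower and none higher, beside 1.82% and 4.13% of all probe sets. These shares also stand beside the calls in the lists below. All 8 changes were below 0, with a median of -0.90. Over all probe sets, 12086 changes were below 0 and 10660 above. The called genes, ccb452, ccb206 and ccb203, belong to the machinery that attaches haem to c-type cytochromes. ccb452 averaged 6.52 ± 0.11 in flight and 7.70 ± 0.30 on the ground, a log2 change of -1.18 (SE 0.18, limma adjusted p = 0.0166). ccb206 averaged 5.72 ± 0.19 in flight and 6.80 ± 0.36 on the ground (log2 change -1.08, limma adjusted p = 0.0341), and ccb203 averaged 3.49 ± 0.22 in flight and 4.53 ± 0.12 on the ground (-1.04, 0.0168). Leaving out single arrays lost the call of ccb452 in 3 of 6 cases (each flight array, highest adjusted p = 0.0715). It lost that of ccb203 without flight replicate 2 (0.0681) or flight replicate 4 (0.0725), and that of ccb206 in every case but ground replicate 4 (highest 0.120).

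The other members of that list missed the threshold. orfX came closest, with a log2 change of -1.05 (SE 0.24, limma adjusted p = 0.0516), and its groups did not overlap. matR, an intron maturase gene that lies inside a nad1 intron, had a log2 change of -0.66 (SE 0.24, limma adjusted p = 0.177), close to the -0.53 of nad1. The cytochrome oxidase genes cox2 and cox1 had -0.76 (0.144) and -0.29 (0.556), and ccb382 had -0.36 (0.502). Set against this list, the nad genes did not stand apart. The nad mean minus the mean of the other mitochondrion-encoded genes was -0.19 ± 0.10 in flight and -0.20 ± 0.22 on the ground.

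The nuclear genes for the rest of complex I did not show the lower levels. Of 42 listed, 27 had a single-gene probe set; none was called in either direction, and 24 of 27 changes were above 0, with a median of 0.16. The largest changes were those of AT2G42310 and AT4G02580. AT2G42310 averaged 3.71 ± 0.39 in flight and 2.80 ± 0.19 in ground arrays (log2 change 0.92, limma adjusted p = 0.0616), and AT4G02580 averaged 5.92 ± 0.12 in flight and 5.18 ± 0.34 in ground arrays (0.74, 0.0791). The median was 0.01 with spike-in centring and -0.10 between flight replicates 2 and 3 and ground replicate 2, so its sign is not settled. Averaged over the list, the level was 6.14, 6.12 and 6.17 in flight, against 6.11, 5.95 and 5.69 on the ground. The nad mean minus this nuclear mean was -0.66 ± 0.11 in flight and 0.37 ± 0.36 on the ground, a difference of -1.02 between groups that did not overlap. Since its sign depends on the probe sets, only the change between groups can be read.

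Nuclear-encoded subunits of complexes II to V and cytochrome c were measured for 25 of 45 listed genes. Of these, 2 were called lower and none higher, while 21 of 25 changes were above 0 and the median was 0.27. That median was 0.40 without ground replicate 2, 0.11 with spike-in centring and 0.10 between flight replicates 2 and 3 and ground replicate 2. CYTC-2, a gene for cytochrome c, the mobile electron carrier after complex III, averaged 3.59 ± 0.19 in flight and 4.91 ± 0.18 on the ground (log2 change -1.32, SE 0.17, limma adjusted p = 0.00865). Its call was lost without flight replicate 3 alone (adjusted p = 0.0519). AT5G25450 averaged 4.20 ± 0.29 in flight and 5.27 ± 0.32 on the ground (-1.07, limma adjusted p = 0.0381), a call that held in 1 of 6 cases with an array left out, that without ground replicate 2 (highest adjusted p 0.123).

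**Figure D4:**
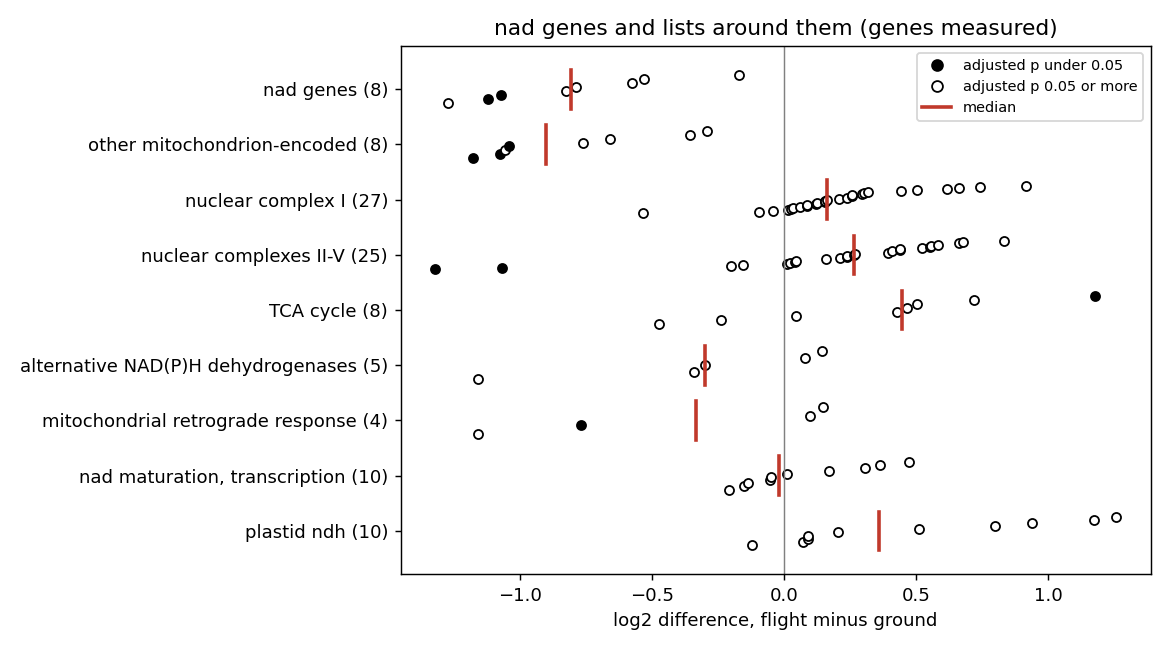
Log2 difference between flight and ground (horizontal axis) for the nad genes and 8 lists around them (rows, with the number of genes measured). Each point is a gene, filled where its adjusted p was under 0.05, and the red bar is the list's median: -0.81 for nad, -0.90 for the other mitochondrion-encoded genes and 0.16 for nuclear complex I.

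Enzymes that feed or bypass complex I were thinly covered. Of 20 listed enzymes of the tricarboxylic acid cycle, which supplies its NADH, 8 were measured; 1 was called higher and none lower, with a median of 0.45 (0.24 to 0.50 over the alternatives, lowest with the seed storage covariate). The called gene, AT5G08300, averaged 6.79 ± 0.37 in flight and 5.62 ± 0.34 on the ground (log2 change 1.18, limma adjusted p = 0.0410), and its call held in 1 of 6 cases with an array left out, that without ground replicate 2 (highest adjusted p 0.146). Of 14 alternative respiratory enzymes, 5 were measured, all of them NAD(P)H dehydrogenases. None was called, with a median of -0.30 (-0.51 without dim probe sets, -0.45 with spike-in centring and -0.18 without ground replicate 2). NDB2, an alternative NADH dehydrogenase that bypasses complex I without pumping protons, averaged 1.93 ± 0.29 in flight and 3.09 ± 0.71 on the ground (-1.16, limma adjusted p = 0.113), near the array medians. NDC1, of the same enzyme class, had -0.34 (0.336), at means of 1.28 in flight and 1.62 on the ground, below the array medians.

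Genes that respond to mitochondrial dysfunction were measured for 4 of 10 listed, NDB2 again among them, with 1 called lower, none higher and a median of -0.33 (-0.77 to -0.29 over the alternatives, lowest without dim probe sets). The called gene, AT5G51440, averaged 3.56 ± 0.18 in flight and 4.33 ± 0.15 on the ground (log2 change -0.77, limma adjusted p = 0.0378). It was not called in any of 6 cases with an array left out (highest adjusted p 0.130). Nuclear factors that splice, edit or stabilise nad transcripts, or transcribe mitochondrial genes, were measured for 10 of 25. None was called, 5 changes were above 0 and 5 below, and the median was -0.02 (-0.17 to 0.22 over the alternatives). OTP43, a pentatricopeptide repeat protein needed for splicing of a nad1 intron, had a log2 change of 0.47 (limma adjusted p = 0.359) and AT5G46920 had 0.36 (0.472). The means of the 10 genes over all arrays lay between 1.32 and 3.15, around the array medians.

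The plastid counterpart of complex I, the NDH complex, has subunits encoded by ndh genes in the plastid genome. Of 10 measured ndh genes none was called, 9 of 10 changes were above 0 and the median was 0.36. ndhJ averaged 8.25 ± 0.46 in flight and 6.996 ± 0.92 on the ground (log2 change 1.26, limma adjusted p = 0.174), and ndhK averaged 8.89 ± 0.54 in flight and 7.72 ± 0.63 on the ground (1.17, 0.133). The list mean was 6.77, 7.33 and 7.14 in flight, against 6.85, 7.08 and 5.80 on the ground. Only ground replicate 4 lay outside the flight range, and without that array the median was 0.06, the lowest among the alternatives tried. Lower levels in flight were thus measured for the mitochondrion-encoded lists and not for the plastid-encoded one, although no test of the difference between lists was made.

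**Figure D5:**
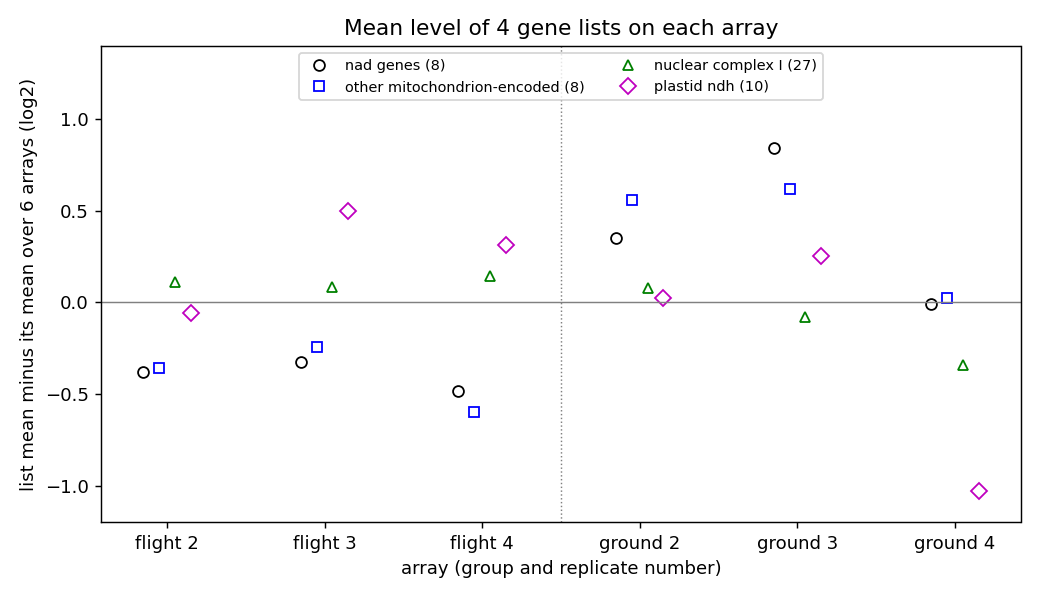
Mean log2 level of 4 gene lists on each array, relative to the list's own mean over the 6 arrays (vertical axis), with flight arrays left of ground arrays (horizontal axis, group and replicate number). The nad genes and the other mitochondrion-encoded genes are low on all 3 flight arrays and highest on ground replicate 3, while nuclear complex I and plastid ndh are lowest on ground replicate 4.

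Outside the mitochondrial genome, the 5 genes whose levels most resembled the nad mean over the 6 arrays were AT5G03640 (Pearson's r = 0.998), AT4G10550 (0.996), AT4G04260 (0.995), AT2G19890 (0.992) and AT2G07751 (0.992). None was called. The first 4 read between 1.04 and 2.66, around or below the array medians. AT2G07751 read 4.71, 4.62 and 4.51 in flight, against 5.67, 6.33 and 4.97 on the ground (log2 change -1.04, SE 0.32, limma adjusted p = 0.117). Its groups did not overlap, and ground replicate 3 was its highest array, as for the nad genes. Chromosome 2 of the Columbia reference carries a large copy of mitochondrial DNA, and RefSeq places AT2G07751 on chromosome 2. A probe set within that copy may read transcripts of either genome. Whether the nad probe sets do so too was not tested, since their single-gene status rests on the annotation.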

How the data were processed

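Shoots were profiled on 3 flight and 3 ground arrays. The values are log2 expression values as deposited by the authors. The submitters' processing notes list PLIER, MAS5 and RMA without saying which produced the table. The values' range (0.63 to 12.98) gave the log base. No value was normalized again for the main fit, and the alternatives that did so are listed below.

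Of 22810 probe sets, 64 controls were left out. A single gene is annotated for 13513 of them, more than 1 gene for 503 and no gene for 8730. Single-gene probe sets were matched to RefSeq (TAIR10.1) by gene identifier (13436), locus tag (48) or mitochondrial symbol (23), and 6 were not. The files name no genome build, so no coordinates are given.

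Flight minus ground was fitted in R 4.3.3 by limma 3.58.1 (lmFit, then eBayes, without covariates), with two-sided p-values adjusted after Benjamini-Hochberg over 22746 probe sets. The SE are moderated. An exact permutation test of 3 against 3 arrays cannot go below 0.1 and was not used. The procedure was also run on simulated data whose noise was independent between probe sets and arrays. That run lacks the array-wide differences of the real arrays and cannot speak to their effect on the calls. The number of arrays limits the precision, and a dim probe set has no detection call.

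The members and gene lists were chosen with earlier results of these data known, and list membership was written from general knowledge. Named from each list were called members, at most 4 with the largest absolute change, or, where none was called, the 2 with the largest absolute change. Among the other mitochondrion-encoded genes, members that were not called are named too. Genes most like the nad mean were the 5 with the highest correlation outside the mitochondrial genome. Loci without a symbol in the tables used are given by locus only. Alternatives were quantile normalization, median and spike-in centring, a dim filter, array weights, a variance prior that is trended and robust, a replicate block, a seed storage covariate, flight replicates 2 and 3 against ground replicate 2, each array left out, other thresholds and, per gene, its probe sets' mean.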

Additional observations from a re-analysis of the deposited data

How the results depend on the processing

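The median log2 change of the 8 nad genes stayed between -1.01 and -0.54 over 16 alternatives, and of the single genes only nad2 changed sign, to 0.13 without ground replicate 3 (-0.37 to 0.13 with 1 array left out). The count of called nad genes, 2 as reported, was 1 with quantile normalization or the seed storage covariate and 4 with spike-in centring. It was 4 at an adjusted p under 0.1 and 0 under 0.01. With 1 array left out it was 0 to 4 (0 without flight replicate 3 or flight replicate 4, 4 without ground replicate 4). No count of called nad genes is given for flight replicates 2 and 3 against ground replicate 2, where a single ground array has no spread. With all arrays kept, nad5 was called in 9 of 9 settings, nad4 in 7 of 9 and nad9 in 6 of 9. For nad4 and nad9, which have a single probe set each, the setting with the mean of a gene's probe sets only repeats the main fit.

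Same-numbered arrays correlated at 0.202, -0.026 and 0.271 in their deviations from the group means. Arrays with different numbers correlated at -0.388 to 0.233. These few values do not settle whether the numbers pair samples, and the main fit left pairing out. With the replicate block, 3 nad genes were called (nad9 in addition, adjusted p = 0.0170), 4 list members and 1106 probe sets in all.

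Of 96 list members measured, 7 were called. The count was 3 with the seed storage covariate, 14 at an adjusted p under 0.1 and 1 under 0.01. With 1 array left out it was 1 to 9. Over all probe sets, 1352 were called (939 higher, 413 lower). The count was 833 (470 higher) with spike-in centring, 716 (415 higher) with the seed storage covariate and 633 (346 higher) for the 3 arrays with little seed storage signal. It was 2282 (1532 higher, 750 lower) under 0.1, 258 (182 higher, 76 lower) under 0.01, and 271 to 1906 (188 to 1124 higher, 83 to 782 lower) with 1 array left out. Spike-in centring moved the median change of all probe sets to -0.17, so the nad median of -0.96 under it compares with that shift. The count for the 3 arrays with little seed storage signal rests on the spread of flight replicates 2 and 3 alone. A single ground array has no spread, so no conclusion is drawn from that count. The cause of the differences between settings was not tested.

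Probe sets near the array medians (nad2 and nad7 here) limit what can be said of those genes, whatever the setting.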

Other observations

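Some mitochondrial genes are read only by probe sets that the annotation also gives to a chromosome 2 locus. nad1 has such shared probe sets beside its single-gene ones. All were picked out after their values were seen. The probe set shared by cob, the cytochrome b gene of complex III, read 8.60, 8.58 and 8.48 in flight, against 9.63, 9.46 and 8.71 on the ground, with no overlap (log2 change -0.72, limma adjusted p = 0.153). That shared by cox3 read 8.43, 8.46 and 7.98 in flight, against 9.32, 9.18 and 8.37 on the ground (-0.66, limma adjusted p = 0.233). That shared by atp9, a subunit of the ATP synthase ring, changed by -0.65 (limma adjusted p = 0.178). That shared by atp1, of the catalytic head of the same enzyme, averaged 10.95 ± 0.24 in flight and 10.96 ± 0.45 on the ground (-0.02, limma adjusted p = 0.983). The shared nad1 probe sets changed by -0.58 (with AT2G07701) and -0.42 (with AT2G07702), beside -0.53 for the much brighter probe set used for nad1. Both were dim, at 3.08 ± 0.05 and 2.39 ± 0.46 in flight, against 3.66 ± 0.50 and 2.81 ± 0.33 on the ground. None of these 6 probe sets was called.

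The chromosome 2 locus AT2G07751, whose levels followed the nad mean, has a length of 357 bases in RefSeq, and the mitochondrial gene nad3 has the same length of 357 bases there. Sequences of the pair were not compared.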
